A study of Homo sapiens with 8 samples.

Results

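The 4 protein kinases that phosphorylate the alpha subunit of the translation initiation factor eIF2 were examined together with their substrate and the genes that set their activity. The group holds 8 genes named for their known roles by a rule that uses no measured value, though earlier results of these data were known when it was written: the kinases EIF2AK1 (also called HRI), EIF2AK2 (PKR), EIF2AK3 (PERK) and EIF2AK4 (GCN2), the substrate EIF2S1 (eIF2alpha), the constitutive phosphatase subunit PPP1R15B (CReP), and GCN1 and IMPACT, which act on GCN2. These are 8 of the 34290 genes with a count, and all 8 were among the 19280 genes with enough counts to test. RNA was sequenced from HEK 293T/17, a human embryonic kidney cell line, in 4 libraries of normal cells and 4 libraries of cells overexpressing KCNQ3, a voltage-gated potassium channel subunit. KCNQ3 came from a transfected plasmid carrying a tagged open reading frame, with FuGene HD as the reagent, and cells were harvested at 48 h. The labels give the same transfection text for every library, so it is not known here if the normal cells were given reagent or a plasmid without insert. Nothing in the labels says that the replicates were separate cultures, so p-values measure the spread between these libraries, which may be technical.

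Phosphorylation of eIF2alpha slows translation of most messages and favours a small set of them, including the transcription factor ATF4, a program known as the integrated stress response. Each kinase answers a different signal: HRI senses haem shortage and mitochondrial stress, PKR double-stranded RNA, PERK unfolded protein in the endoplasmic reticulum and GCN2 uncharged tRNA and stalled ribosomes. The kinases are regulated mainly as proteins, by dimerization and autophosphorylation, so an RNA level says how much message was present and nothing of kinase activity.

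Because every signal converges on 1 serine of EIF2S1, the coding sequence around it is shown first. It covers bases 136 to 174 of the coding sequence of ENST00000256383 (GENCODE 29), and the capitals mark the codon of serine 51, which is codon 52 when the initiator methionine is counted.
EIF2S1: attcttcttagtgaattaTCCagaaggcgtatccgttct
The 4 kinases share their catalytic domain, and the coding sequence of the catalytic loop is shown to compare them. Capitals mark the 17 of 30 bases that were identical in all 4, and the stretches start at codon 440 of EIF2AK1, 412 of EIF2AK2, 935 of EIF2AK3 and 846 of EIF2AK4.
EIF2AK1: CAccGaGAtcTgAAGCCaagaAAtATtTTt
EIF2AK2: CAtaGaGAtcTtAAGCCaagtAAtATaTTc
EIF2AK3: CAcaGgGAccTcAAGCCatccAAcATaTTc
EIF2AK4: CAccGgGAttTgAAGCCtgtcAAcATtTTt
Despite this likeness, the main transcripts of the 4 kinases had 0 stretches of 50 bases in common.

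Libraries held 24020097 to 30734915 estimated counts. KCNQ3, the targeted gene, had 0 to 5 counts in each control library and 15283 to 19709 in each overexpression library, which matched the labels. Its level was 0.0996 ± 0.080 CPM (counts per 1e+06 counts, scaled by TMM; SD, n = 4) in control and 684 ± 87.96 (n = 4) in overexpression, an exact two-sided permutation p of 0.0286 over 70 assignments, the smallest that 4 against 4 can give. Embryonic kidney line markers were present in every library, at a summed 622 to 841 TPM (transcripts per 1e+06, adjusted for length). The blood markers PTPRC, CD3E and HBB, the fibroblast markers COL1A2, DCN and THY1 and the hepatocyte markers TTR and SERPINA1 were at 0 in all 8 libraries. Mitochondrial genes took 3.94% to 5.53% of counts in control and 4.77% to 5.77% in overexpression, and the part of this in the results was not tested.

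The first question was whether cells overexpressing KCNQ3 held different amounts of message for the kinases. None of the 4 kinases passed the test (edgeR, quasi-likelihood, with p-values adjusted by Benjamini-Hochberg over 19280 genes, threshold 0.05), against 0.301% of all genes tested, 0.192% lower and 0.109% higher. Groups overlapped for every kinase, where the groups did not overlap for 11.6% of all genes tested (5.77% lower, 5.84% higher). In bulk RNA, fewer cells with a message and less message per cell cannot be told apart.

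EIF2AK1 (ENSG00000086232; GRCh38 chromosome 7, 6022244 to 6059230, minus strand) had the highest level of the kinases, on CPM and per length on TPM. Its 4 control libraries measured 224, 226, 218 and 224 CPM, and its 4 overexpression libraries 218, 228, 229 and 232 CPM. Overexpression replicate 1 lay at the low end of both groups and the other 3 at the top, so the groups overlapped. The log2 fold change was 0.03 (SE 0.04, edgeR adjusted p = 0.761).

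EIF2AK2 (ENSG00000055332; chromosome 2, 37099210 to 37157065, minus strand), the interferon-inducible sensor of double-stranded RNA, measured 99.5, 102, 93.5 and 95.4 CPM in control. In overexpression it measured 95.7, 86.4, 92.5 and 94.8 CPM. Overexpression replicate 2 was the lowest of the 8 libraries, and the other 3 lay near or within the control range. Its log2 fold change was -0.08 (SE 0.05, edgeR adjusted p = 0.369).

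EIF2AK3 (ENSG00000172071; chromosome 2, 88556741 to 88627576, minus strand), the kinase of the endoplasmic reticulum membrane, had the lowest level of the 8 genes, on CPM and on TPM. It measured 25.7, 21.8, 25.2 and 24.1 CPM in control. It measured 27.0, 24.4, 24.9 and 24.6 CPM in overexpression, where replicate 1 stood above the other 3. The log2 fold change was 0.06 (SE 0.06, edgeR adjusted p = 0.641), the widest error of the group.

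EIF2AK4 (ENSG00000128829; chromosome 15, 39934146 to 40035591, plus strand), the amino acid sensor, measured 78.9, 77.1, 70.05 and 70.1 CPM in control. It measured 67.7, 70.2, 76.2 and 69.9 CPM in overexpression. Control libraries fell into a higher and a lower pair, and the overexpression values spanned most of the same range. EIF2AK4 thus had a log2 fold change of -0.06 (SE 0.05, edgeR adjusted p = 0.583).

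**Figure D1:**
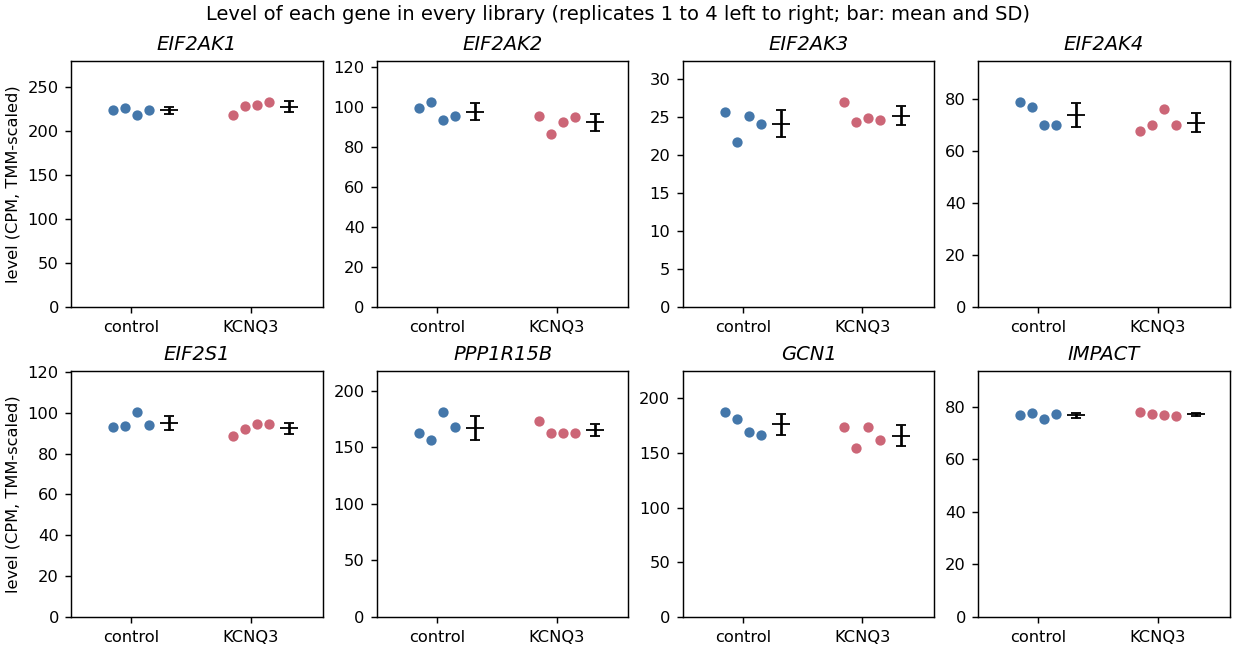
Level of each of the 8 genes in every library, in CPM after TMM scaling, with control libraries in blue and KCNQ3 libraries in red, replicates 1 to 4 from left to right, and the mean with its SD in black. The 2 groups overlap in every panel, from EIF2AK3 at 21.8 to 27.0 CPM to EIF2AK1 at 218 to 232 CPM.

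The substrate and the phosphatase subunit were examined next. EIF2S1 (ENSG00000134001; chromosome 14, 67359997 to 67386516, plus strand) measured 92.8, 93.6, 100.3 and 94.1 CPM in control and 88.9, 91.9, 94.5 and 94.7 CPM in overexpression. Control replicate 3 stood above the other 7 libraries. The log2 fold change was -0.04 (SE 0.04, edgeR adjusted p = 0.627). PPP1R15B (ENSG00000158615; chromosome 1, 204403387 to 204411791, minus strand) directs protein phosphatase 1 to eIF2alpha in unstressed cells. It measured 163, 157, 181 and 168 CPM in control and 173, 163, 163 and 162 CPM in overexpression. Overexpression replicate 1 was above the other 3, which lay between control replicates 2 and 4. The difference on the log2 scale was -0.02 (SE 0.05, edgeR adjusted p = 0.905).

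GCN1 and IMPACT act on GCN2 in opposite directions: GCN1 binds the ribosome and is needed to activate the kinase, and IMPACT competes for GCN1 and restrains it. GCN1 (ENSG00000089154; chromosome 12, 120127203 to 120194710, minus strand) measured 187, 181, 169 and 167 CPM in control and 174, 154, 174 and 162 CPM in overexpression. Its 2 highest libraries were controls and its 2 lowest were overexpression libraries, with the rest mixed. On the log2 scale the difference was -0.09 (SE 0.05, edgeR adjusted p = 0.425), the furthest from 0 of the 8 genes. IMPACT (ENSG00000154059; chromosome 18, 24426616 to 24453535, plus strand) measured 76.9, 77.8, 75.4 and 77.2 CPM in control and 78.0, 77.2, 76.8 and 76.4 CPM in overexpression. All 8 libraries lay between 75.4 and 78.0 CPM, and its log2 fold change was 0.01 (SE 0.03, edgeR adjusted p = 0.955).

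Over the 8 genes, 0 passed the adjusted threshold with edgeR, with DESeq2 or with limma on TPM. Over all genes edgeR called 58 of 19280, or 0.301%, DESeq2 called 727 and limma on TPM 7. With shares so small, a count of 0 of 8 says little about these genes. At an unadjusted p under 0.05 the edgeR count was also 0, where 19.4% of all genes tested passed, 9.46% lower and 9.92% higher. The fold change was below 0 for 5 genes and above 0 for 3, against 47.4% of all genes below 0, and the median log2 fold change was -0.03 against 0.01 over all genes. The 95% intervals limit how far a change could have gone unseen: the lowest bound was -13.3% for GCN1 and the highest 14.7% for EIF2AK3. The genes were also even between libraries of 1 group, with a median coefficient of variation of 4.86% in control and 3.91% in overexpression, beside 4.67% and 4.94% for the 7560 genes in the same range of levels. IMPACT had the smallest variation, 0.857% in overexpression.

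**Figure D2:**
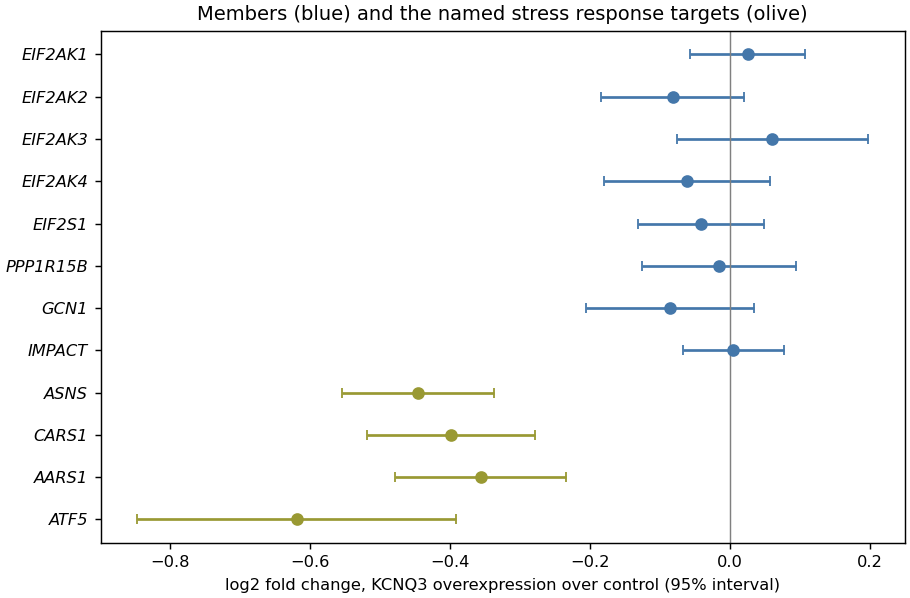
Log2 fold change of KCNQ3 overexpression over control with its 95% interval from edgeR, for the 8 genes in blue and 4 stress response targets in olive. The olive genes were picked as the called targets of smallest p, while the blue genes are shown whatever their values. All 21 targets run from -0.79 to -0.15. Every blue interval crosses 0 and stays between -0.21 and 0.20, and the olive values run from -0.36 for AARS1 to -0.62 for ATF5.

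Levels were then compared between genes on the TPM scale, which is per transcript length. In control the order was EIF2AK1 at 83.7 ± 3.79 TPM, PPP1R15B at 51.9 ± 3.33, EIF2S1 at 42.1 ± 3.44, GCN1 at 35.4 ± 2.71, IMPACT at 34.2 ± 1.42, EIF2AK4 at 23.4 ± 1.99, EIF2AK2 at 18.8 ± 1.53 and EIF2AK3 at 8.83 ± 0.770 (SD, n = 4). The ranges of EIF2S1 and GCN1 overlapped, as did those of GCN1 and IMPACT, and the other neighbours were separate. EIF2AK1 was 1.61 times PPP1R15B, the next in order, and EIF2AK2 was 2.12 times EIF2AK3, the last. In overexpression EIF2AK1 measured 82.3 ± 1.10 TPM, PPP1R15B 49.7 ± 3.50, EIF2S1 38.8 ± 1.53, IMPACT 34.0 ± 1.86, GCN1 32.8 ± 2.77, EIF2AK4 21.1 ± 1.17, EIF2AK2 16.8 ± 0.808 and EIF2AK3 8.96 ± 0.772 (SD, n = 4). IMPACT and GCN1 were in the other order there, and theirs was the single pair of neighbours with overlapping ranges.

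The 4 kinases summed to 143, 137, 133 and 125 TPM in control and 132, 125, 130 and 129 TPM in overexpression. EIF2AK1 gave most of this sum in both groups, 62.2% ± 0.952 in control and 63.7% ± 0.802 in overexpression (SD, n = 4). EIF2AK4 gave 17.4% ± 0.579 and 16.4% ± 0.765, and EIF2AK3 6.56% ± 0.472 and 6.93% ± 0.482. EIF2AK2 gave 14.1%, 14.3%, 13.9% and 13.4% in control and 13.4%, 12.6%, 12.8% and 13.3% in overexpression. Before rounding its lowest control, 13.373%, lay just above its highest overexpression library, 13.356%, so the groups did not overlap on TPM, and they overlapped on CPM. The order of EIF2AK4 and EIF2AK2 depended on the scale. On CPM, which is not adjusted for length, EIF2AK2 gave 23.3% in control and 22.2% in overexpression, and EIF2AK4 17.7% and 17.1%. Their main transcripts are 10042 bases long for EIF2AK2 and 5499 for EIF2AK4.

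**Figure D3:**
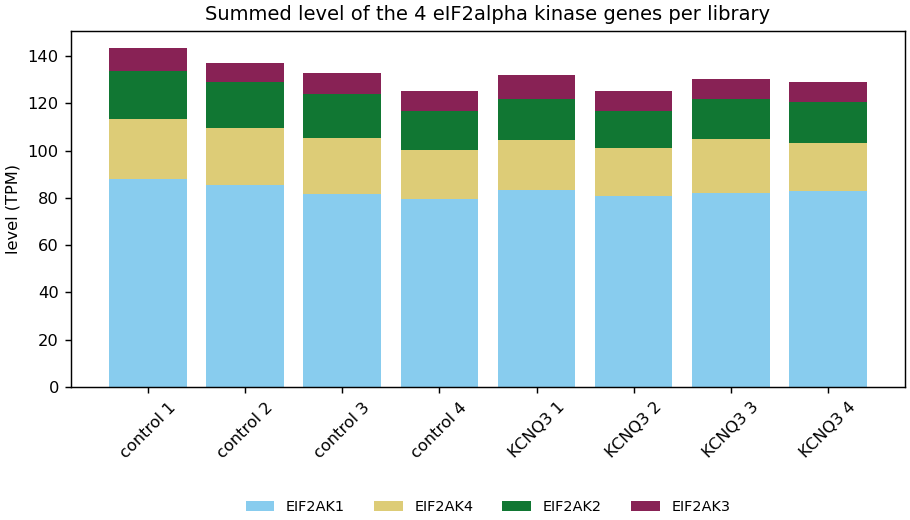
Summed TPM of the 4 kinase genes in each library, stacked with EIF2AK1 at the base, then EIF2AK4, EIF2AK2 and EIF2AK3. The totals run from 125 to 143 TPM, and EIF2AK1 is the largest block in all 8 libraries.

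Ratios between the RNA levels of the genes are given as a description, with no test. PPP1R15B stood at 0.386 ± 0.0291 of the summed kinases in control and 0.384 ± 0.0210 in overexpression, a difference whose sign turned when any of 5 libraries was left out, and EIF2S1 at 0.313 ± 0.0281 and 0.300 ± 0.0139 (SD, n = 4). GCN1 was 1.51 ± 0.0528 times EIF2AK4 in control and 1.55 ± 0.0861 times in overexpression, a difference that turned on CPM (2.38 and 2.34) and without overexpression replicate 1 (-0.0014). The ratio of IMPACT to GCN1 was 0.921, 0.965, 0.985 and 1.00 in control and 1.01, 1.10, 1.02 and 1.03 in overexpression, which did not overlap on TPM and overlapped on CPM. Of the 9 such quantities on TPM, 3 did not overlap between groups, and on CPM 1 did not. The quantities reuse the same genes and are not independent. For single genes on CPM, groups did not overlap for 11.6% of all genes tested, and no such share was computed for ratios. The gaps were narrow for the EIF2AK2 share (13.373% against 13.356%) and for IMPACT to GCN1 (1.0008 against 1.0056).

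The quantity that was separate on both scales set the inducible phosphatase subunit PPP1R15A (GADD34) against the constitutive PPP1R15B. PPP1R15A is outside the 8 genes, and the ratio is singled out after its values were seen. It was 0.997, 0.731, 1.01 and 0.791 in control and 0.711, 0.638, 0.584 and 0.523 in overexpression (TPM), a mean of 0.882 ± 0.142 against 0.614 ± 0.0798 (SD, n = 4). The 4 overexpression libraries were below the 4 controls, with control replicate 2 close to overexpression replicate 1. PPP1R15A itself measured 72.3, 51.02, 81.3 and 59.1 CPM in control and 54.8, 45.9, 42.2 and 37.7 CPM in overexpression, where the groups overlapped. Its log2 fold change was -0.55 (SE 0.18, edgeR adjusted p = 0.174, DESeq2 adjusted p = 0.0172). DESeq2 called 727 of all genes, where edgeR called 58.

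**Figure D4:**
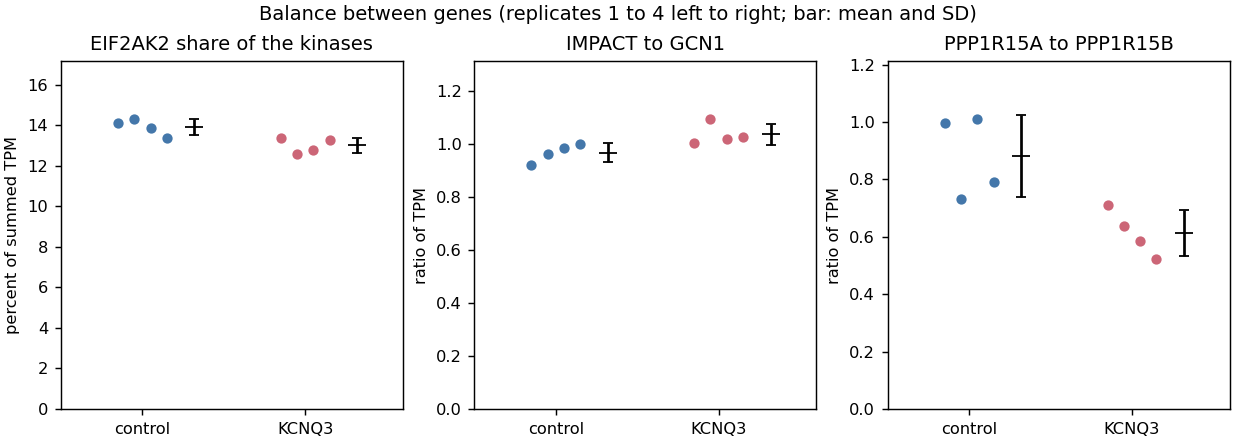
Balances on the TPM scale in every library, with replicates 1 to 4 from left to right and the mean with its SD in black: the EIF2AK2 share of the summed kinases in percent, the ratio of IMPACT to GCN1, and the ratio of PPP1R15A to PPP1R15B. The last runs from 0.731 to 1.01 in control and from 0.523 to 0.711 in overexpression, and in the other 2 the groups are separated by narrow gaps.

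The deposited values were per transcript, so the transcripts behind each gene were also described. The 8 genes have 56 annotated transcripts, of which 48 had a count and 17 could be tested, and edgeR called 0 of them at the adjusted threshold, against 0.0127% of all 47129 transcripts tested, and 0 at an unadjusted p under 0.05, against 5.58%. In each gene 1 transcript held most of the counts in every library. PPP1R15B has a single annotated transcript, ENST00000367188 (2 exons). EIF2AK1 (ENST00000199389, 15 exons) and EIF2AK3 (ENST00000303236, 17 exons) drew 99.4% to 99.8% of their counts from 1 transcript, and GCN1 (ENST00000300648, 58 exons) 99.4% to 99.7%.

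The other 4 genes varied more. EIF2AK2 drew 88.8% to 99.0% of its counts from ENST00000233057 (17 exons), with the lowest share in control replicate 3, where ENST00000395127 took 10.6%. EIF2AK4 drew 82.1% to 98.0% from ENST00000263791 (39 exons), again lowest in control replicate 3, where ENST00000559624 took 10.0%. EIF2S1 drew 81.3% to 97.0% from ENST00000256383 (8 exons), with ENST00000466499 at 1.15% to 16.9%. IMPACT drew 78.2% to 93.7% from ENST00000284202 (11 exons), lowest in overexpression replicate 3, where ENST00000580706 took 10.4% and ENST00000648078 10.3%. For each of these 4 genes the SD of this share in at least 1 group was larger than the difference between groups.

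Some of these genes share sequence with neighbours on the opposite strand, and the strand setting of the counting is not known here, so reads there cannot be told apart. EIF2AK1 overlaps AIMP2 over 532 exonic bases, EIF2S1 overlaps ATP6V1D over 269 and EIF2AK3 overlaps the antisense genes AC104134.1 over 781 and AC062029.1 over 38. EIF2AK2 overlaps the pseudogene AC007899.1 over 401 bases and GPATCH11 over 35. AC104134.1 had 0 to 11 counts per library, AC007899.1 0 to 14, AC062029.1 63 to 84, AIMP2 596 to 776, ATP6V1D 1076 to 1455 and GPATCH11 1209 to 1658.

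A promoter stretch is shown for the phosphatase subunit beside that of ASNS, a known target of ATF4, because both carry the letters TGATGNAA of the ATF4 composite element. RefSeq promoter sequences (GRCh38.p14, 300 bases around the start) were matched by symbol for 7 of the 8 genes, EIF2AK1 not among them. The letters were found on either strand in 3.62% of 35116 promoters. Counted by gene, they were found in 1217 of the 27305 genes with an entry, and in 1 of the 7 genes, PPP1R15B. The PPP1R15B stretch is chr1:204411978-204412067 and the ASNS stretch chr7:97872439-97872528, both on the minus strand, with the match in capitals. A match is a string of letters in a window and says nothing of binding.
PPP1R15B: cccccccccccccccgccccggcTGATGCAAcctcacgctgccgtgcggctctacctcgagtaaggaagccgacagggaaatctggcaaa
ASNS: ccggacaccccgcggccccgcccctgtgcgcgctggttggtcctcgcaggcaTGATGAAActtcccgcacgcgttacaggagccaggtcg

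Likeness across the 8 libraries is given as a description over 12916 genes of at least 5 CPM; the libraries share depth and scaling, and no p is given. The gene most like EIF2AK1 was HSPA8P8 (Pearson's r 0.985, Spearman's rho 0.976), that most like EIF2AK2 was PNMA2 (r 0.966, rho 0.738), that most like EIF2AK3 was ZSCAN21 (r 0.987, rho 0.929) and that most like EIF2AK4 was SMARCD2 (r 0.971, rho 0.833). With so few libraries, 26 to 66 genes per kinase exceeded r 0.9. Among the 28 pairs of the 8 genes, EIF2AK2 with GCN1 was highest (r 0.830, rho 0.762) and EIF2S1 with IMPACT lowest (r -0.892, rho -0.881). The lowest value rests on small differences, since IMPACT lay between 75.4 and 78.0 CPM in all 8 libraries. EIF2S1 also stood apart in control replicate 3, at 100.3 CPM.

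The rest of the pathway was taken from lists of other eIF2 and eIF2B subunits, phosphatase subunits, modulators, other endoplasmic reticulum stress genes and stress targets. Over all genes DESeq2 called 727 where edgeR called 58, so a DESeq2 call in these lists stands against that larger number. Of 7 other eIF2 and eIF2B subunits, edgeR called 0 at the adjusted threshold; at an unadjusted p under 0.05, EIF2B1 was higher and EIF2S2 lower, where 9.92% of all genes were higher and 9.46% lower. EIF2S2, the beta subunit, measured 244 ± 8.10 CPM in control and 217 ± 4.34 in overexpression (n = 4), with all 4 overexpression libraries below the controls and a log2 fold change of -0.17 (SE 0.04, edgeR adjusted p = 0.0807; DESeq2 adjusted p = 2.38e-04). EIF2S3, the gamma subunit, measured 683 ± 14.97 and 660 ± 20.7 CPM (edgeR adjusted p = 0.562). Of the 4 phosphatase genes edgeR called 0. At an unadjusted p under 0.05 PPP1R15A was lower by edgeR, 1 of 4 beside 19.4% of all genes. PPP1R15A was the 1 gene of the list that DESeq2 called. PPP1CC had a log2 fold change of 0.01 and PPP1CA of 0.07 (edgeR adjusted p = 0.885 and 0.396). Of the 16 modulators edgeR called 0, with OMA1, TARBP2 and RPLP2 higher and PRKRA lower at an unadjusted p under 0.05, 4 of 16 beside 19.4% of all genes. DESeq2 called RPLP2 higher (adjusted p = 0.0262). RPLP1 and RPLP0, stalk proteins of the ribosome that activate GCN2, had log2 fold changes of 0.03 and 0.01 by edgeR, and -0.17 and -0.12 on TPM.

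The 3 genes of the other arms of the endoplasmic reticulum stress response, the sensors ATF6 and ERN1 and the transcription factor XBP1, whose message ERN1 splices, had log2 fold changes below 0. EdgeR called 0 of them, and ATF6 and ERN1 were lower at an unadjusted p under 0.05, where 9.46% of all genes were lower. ATF6 measured 108 ± 6.76 CPM in control and 89.3 ± 4.39 in overexpression (n = 4), a log2 fold change of -0.28 (SE 0.05, edgeR adjusted p = 0.0601), and was called by DESeq2 (adjusted p = 9.76e-04) and by edgeR without control replicate 4 (adjusted p = 0.0291) or overexpression replicate 1 (adjusted p = 0.0492). ERN1 had a log2 fold change of -0.39 (edgeR adjusted p = 0.129, DESeq2 adjusted p = 0.0416) and XBP1 of -0.21 (edgeR adjusted p = 0.351). The DESeq2 calls of ATF6 and ERN1 are among 727 over all genes, against 58 by edgeR.

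The 21 genes known to be induced downstream of eIF2alpha phosphorylation gave the contrast to the 8 genes. All 21 had a log2 fold change below 0, from -0.79 to -0.15 with a median of -0.36, and edgeR called 5 of them lower and 0 higher, against 0.192% of all genes called lower. At an unadjusted p under 0.05 the count was 17 lower, against 9.46% of all genes. DESeq2 called 14 lower, where it called 727 of all genes in either direction against 58 by edgeR. The share of all genes that DESeq2 called lower was not computed, so the 14 have no matching background. Limma on TPM called 0 of the list and 7 of all genes. This list was chosen with earlier results of these data known, so its direction is not independent evidence.

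The called targets were led by ASNS, asparagine synthetase, at 589 to 666 CPM in control and 445 to 478 in overexpression. Its log2 fold change was -0.45 (SE 0.05, edgeR adjusted p = 0.00783), with all 4 overexpression libraries below the controls. CARS1 and AARS1, which charge tRNA with cysteine and alanine, fell from 126 ± 8.21 to 95.2 ± 4.47 CPM and from 402 ± 28.1 to 314 ± 11.9 CPM (n = 4; edgeR adjusted p = 0.0204 and 0.0348). ATF5, a transcription factor translated like ATF4, fell from 13.6 ± 2.22 to 8.89 ± 0.207 CPM (n = 4; edgeR adjusted p = 0.0382). GARS1 was the fifth call, named after its values were seen, and measured 374 ± 25.5 CPM in control and 294 ± 17.5 in overexpression (n = 4). Of 16 alternatives, ASNS lost its call in 2, CARS1 in 7, AARS1 in 8 and ATF5 in 10, while their log2 fold changes stayed between -0.50 and -0.43, -0.44 and -0.36, -0.40 and -0.32, and -0.70 and -0.51. ATF4, whose activity depends mainly on translation, measured 816 ± 23.6 and 734 ± 17.9 CPM (log2 fold change -0.15, edgeR adjusted p = 0.104; 0.0093 on TPM), and PHGDH, of serine synthesis, 761 ± 52.4 and 659 ± 21.5 CPM (-0.21, edgeR adjusted p = 0.0981).

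**Figure D5:**
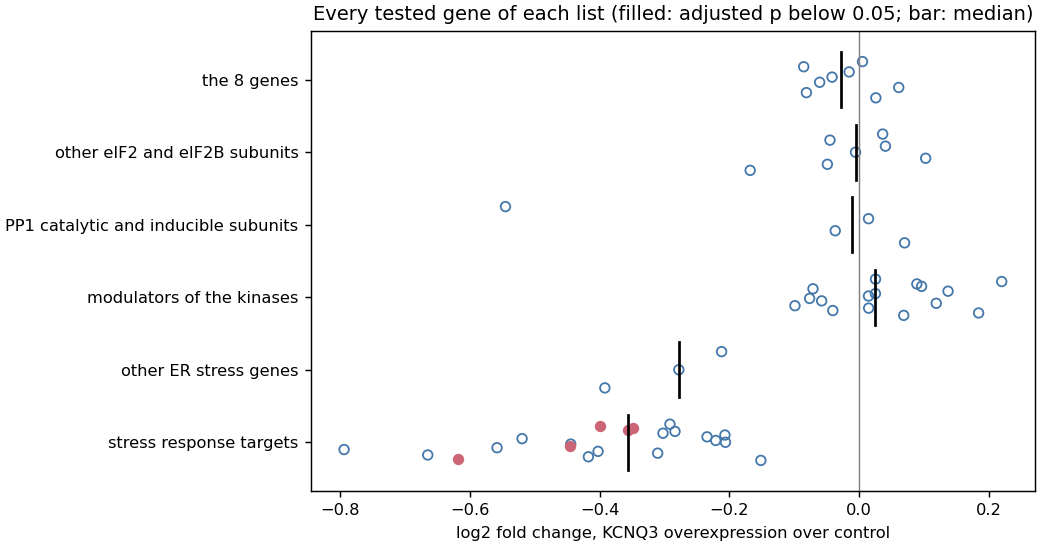
Log2 fold change of every tested gene in the 8 genes and in 5 lists of the pathway, with filled points for genes past the adjusted threshold and a bar at each list's median. The 8 genes lie around a median of -0.03 with 0 filled points, and the 21 stress response targets lie below 0 with 5 filled points around a median of -0.36.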

How the data were processed

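The authors deposited 2 kinds of value per transcript for each library: estimated counts, given as whole numbers, and TPM (transcripts per 1e+06). Per the submitters' processing notes, HISAT2 2.1.0 and StringTie 2.1.0 were used with GRCh38.p13, besides SAMtools 1.9, cutadapt 2.8 and FastQC 0.11.5. Which step each tool did, the annotation and the strand setting are not stated. Of 227751 transcript identifiers, 205804 matched GENCODE 29, holding 98.7% to 98.9% of counts, and values were summed per gene. Genes were filtered with filterByExpr (minimum count 10, total 15) and tested with edgeR 4.0.16 in R 4.3.3. The settings were TMM scaling, the robust quasi-likelihood fit and Benjamini-Hochberg adjustment, threshold 0.05. Taken over all genes with at least 20 counts in a pair of libraries, replicates of a group differed by more than counting noise. DESeq2 1.42.0, limma 3.58.1 on log2(TPM + 1) and log2(TPM + 0.1), other scaling and filters, a replicate block and each library left out were alternatives. Library totals of 24020097 to 30734915 counts gave these genes 576 to 6897 counts per library. The fits were tested on simulated data; a test of transcript usage gave false calls there and was not used. Named genes were KCNQ3, the 8 genes and, of each list, up to 4 called genes by smallest p and the 2 of highest mean TPM; genes outside this are said to be chosen after their values were seen, as are EIF2B1, OMA1, TARBP2, RPLP2, PRKRA and ERN1. The 8 genes and the lists were chosen with earlier results of these data known.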

Additional observations from a re-analysis of the deposited data

Results flagged for a closer look

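Of 80 groups of 4 libraries checked for a library that stood far from the other 3 (Dixon's criterion), 12 had one. Chance marks about 1 in 20 independent groups. The groups here reuse the same genes as levels, shares and ratios, so the 12 cannot be tested against that rate. Among the 8 genes, EIF2AK3 stood high in overexpression replicate 1 at 27.0 CPM, PPP1R15B in overexpression replicate 1 at 173 CPM and EIF2S1 in control replicate 3 at 100.3 CPM. Overexpression replicate 1 also stood high in the EIF2AK3 share of the summed kinases, 7.65%, and in the ratio of PPP1R15B to the kinases, 0.416. Control replicate 4 stood low in the EIF2AK4 share of the kinases, 16.5%. Among transcripts, control replicate 3 stood low in the share of ENST00000233057 of EIF2AK2, 88.8%, and of ENST00000263791 of EIF2AK4, 82.1%, and overexpression replicate 3 stood apart in the latter at 95.2%. In the wider pathway PPP1CA stood apart in control replicate 2 at 157 CPM, ATF6 in control replicate 4 at 98.2 CPM and ASNS in overexpression replicate 1 at 445 CPM.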

How the results depend on the processing

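None of the 8 genes was called in any of 128 gene-by-alternative fits (16 each); the smallest adjusted p was 0.257 and log2 fold changes ran from -0.16 to 0.09. Over all genes 58 were called: 60 with RLE scaling, 57 at a mean of at least 50 counts, 56 with no filter, 35 with no scaling, 727 with DESeq2, 7 and 7 with limma on the TPM scales, and 8 to 378 with a library left out (19, 20, 15 and 194 without control replicates 1 to 4; 378, 8, 19 and 15 without overexpression replicates 1 to 4); the cause was not tested. Transcript calls were 6, and 0 with no filter and 0 to 9 with a library left out. With the replicate block, 86 genes and 0 transcripts were called, and ATF5 lost its call (adjusted p = 0.0540); same-numbered libraries deviated together by correlations of 0.0911, -0.0107, -0.121 and -0.0342, so the numbers were not taken as a pairing, and not every library correlated best with its own number. Fold changes near 0 reversed sign: EIF2AK1 to -0.022 and -0.022 on the TPM scales; PPP1R15B from -0.048 to 0.022 with a library left out; IMPACT to -0.012 without scaling, -0.0015 without the filter, -0.0025 with DESeq2, -0.011 and -0.011 on TPM, and -0.0065 to 0.0083 with a library left out; PPP1CC to -0.0034 without scaling, -0.019 and -0.020 on TPM and -0.0079 to 0.023 with a library left out; RPLP1 to -0.17 and -0.17 on TPM and -0.0097 to 0.054 with a library left out; RPLP0 to -0.0031 without scaling, -0.12 and -0.12 on TPM and -0.025 to 0.032 with a library left out; ATF4 to 0.0093 and 0.0094 on TPM. Of the main transcripts, ENST00000199389 moved to 0.0029 and ENST00000256383 to 0.0024 without scaling, and with a library left out they ran from -0.0047 to 0.023 and -0.027 to 0.045, ENST00000303236 from -0.0018 to 0.076, ENST00000263791 from -0.10 to 0.035 and ENST00000367188 from -0.060 to 0.0062. On CPM the difference in the ratio of IMPACT to GCN1 was 0.0285 (0.0691 on TPM) and in that of PPP1R15A to PPP1R15B -0.120 (-0.269 on TPM). The planned test of transcript usage was run and is not reported, since many of its calls on simulated data were false. The ratio of GCN1 to EIF2AK4 differed by 0.0375 on TPM, -0.0383 on CPM and -0.0014 without overexpression replicate 1. The 8 genes had 576 to 6897 counts per library. Over all genes with at least 20 counts in a pair of libraries, replicates differed by more than counting noise (chi-square per degree of freedom 9.72 to 18.6). This was not computed for the 8 genes alone. Among them IMPACT had a coefficient of variation of only 1.29% in control and 0.857% in overexpression.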
